A study of Mus musculus with 2 samples.

Results

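Ion channels are membrane proteins that let ions cross cell and organelle membranes, and their genes form large families named for the ion or the channel structure. In brown adipose tissue, the fat that burns lipid to make heat, sympathetic nerves act on fat cells through beta-adrenergic receptors, which depolarises the plasma membrane and raises intracellular calcium. Potassium channels oppose that depolarisation, calcium and transient receptor potential (TRP) channels admit cations, and anion channels regulate cell volume and organelle acidity. The genes described here were all symbols in the deposited table that begin with Kcn, Scn, Cacn, Clcn, Clic, Trpc, Trpm, Trpv, Lrrc8 or Ano (for Scn, Clic, the Trp names and Ano with a digit next), a choice made by name. The names gave 34 of 10778 symbols, from 43 of 14189 assembled transcripts, and transcripts of a symbol were summed. One of the 34, Trpc4ap, encodes a protein named for its association with TRPC4 and is no channel subunit, so 33 symbols encode channel or exchanger subunits.

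The SML group was brown adipose tissue of male C57BL6/J mice, aged 8 to 12 weeks, kept for 10 days on a high-fat diet (fat supplying 60% of energy) with intraperitoneal SML at 5 mg per kg body weight. The HFD control group was the same tissue from mice of that sex, strain and age on that diet for the same time, without SML. The labels abbreviate the compound as SML, and the title of the series names sesaminol. Each group had 1 poly(A) RNA library, and how many animals a library stands for is unknown from the labels.

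With 1 library a group there is no replicate check and no test. Each difference compares 2 libraries, and its 95% interval covers counting error only. The table held 8502352 fragments for the SML library and 12005329 for the HFD control library. Levels are in FPKM (fragments per kilobase of transcript, scaled to library size), which allows comparison between genes. Differences between libraries are given as log2(FPKM + 1) in SML minus HFD control, a scale that understates changes of genes with low values, and as ratios of the deposited scaled counts. The size rule counts a gene as higher or lower where that difference reached 1.5-fold, among the 9887 genes with a mean of at least 1 FPKM. Of the 34 members 32 passed that filter, and Scn7a and Cacng7 did not. All 11 brown adipocyte markers had rows, with levels of 3.38 to 26726 FPKM in SML and 2.34 to 30001 FPKM in HFD control.

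Among the 32 members 1 was higher in the SML library and 5 were lower, while 26 were neither. Over all genes kept, 5.44% were higher and 5.76% were lower by the same rule. The single higher member was Kcnab3, a cytoplasmic beta subunit of voltage-gated potassium channels. The 5 lower members were Cacna1s, Cacnb1, Cacng1, Cacng6 and Scn4b. All 5 belong to a list of channel genes of skeletal muscle, chosen with earlier results of these data known. These 5 were below 1 FPKM in SML, and Kcnab3 was below 1 FPKM in HFD control. Each thus passed the filter only through the library where it was higher. In mm10, as deposited, Kcnab3 lies at chr11:69326258-69333041, Cacna1s at chr1:136052901-136119822, Cacnb1 at chr11:98001508-98022627, Cacng1 at chr11:107703218-107716476, Cacng6 at chr7:3424662-3434940 and Scn4b at chr9:45139042-45154061. At 2-fold 0 members were higher, against 0.668% of all genes kept, and 4 members were lower, against 1.96%. The median difference was -0.04 over the 32 members and 0 over all genes kept, whose quartiles were -0.21 and 0.22. The interval of the count ratio lay above 1 for 9 of the 32 members and below 1 for 10, against 25.2% and 23.5% of all genes kept.

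**Figure D1:**
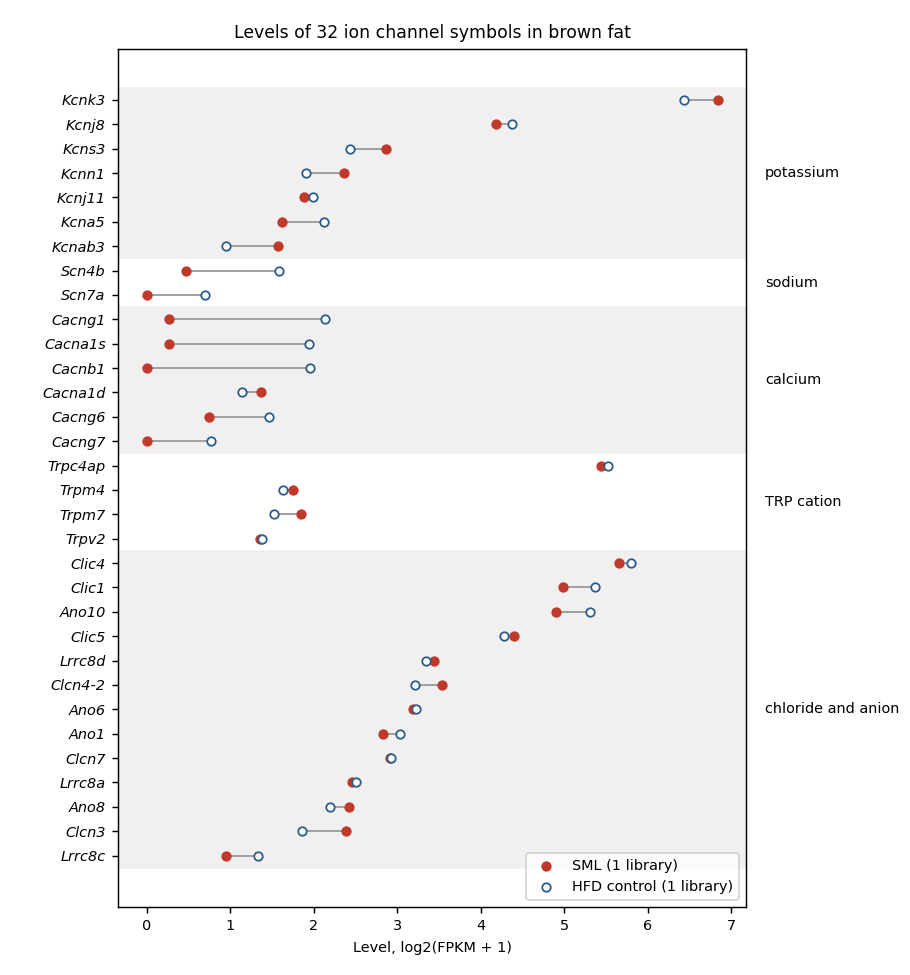
Level of 32 of the 34 symbols, Scn7a and Cacng7 below the filter included, as log2(FPKM + 1), by ion and then by mean level, with a filled point for the SML library and an open point for the HFD control library. Kcnk3 lies farthest right in both libraries, and the widest gaps are those of Cacnb1, Cacng1 and Cacna1s.

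The upstream sequences of 4 members are shown for their place in the results: Cacna1s and Cacnb1 encode subunits of the same muscle calcium channel and were among the members that differed most between the libraries, while Clic4 and Kcnj8 are abundant members whose levels were within 1.5-fold. They were chosen after the values were seen. Each run starts 250 bases before the RefSeq transcription start in build GRCm38.p6 and ends before the first annotated transcript of its gene, and it reads 5′ to 3′ on the strand of the gene. Capitals mark CANNTG, the E-box letters that basic helix-loop-helix factors such as the muscle regulator MyoD bind, searched on both strands.

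Cacna1s chr1:136052561-136052749 (+ strand): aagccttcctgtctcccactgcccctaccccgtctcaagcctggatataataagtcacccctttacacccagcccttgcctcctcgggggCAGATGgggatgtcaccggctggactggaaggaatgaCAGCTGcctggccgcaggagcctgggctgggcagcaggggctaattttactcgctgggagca
Cacnb1 chr11:98022635-98022877 (- strand): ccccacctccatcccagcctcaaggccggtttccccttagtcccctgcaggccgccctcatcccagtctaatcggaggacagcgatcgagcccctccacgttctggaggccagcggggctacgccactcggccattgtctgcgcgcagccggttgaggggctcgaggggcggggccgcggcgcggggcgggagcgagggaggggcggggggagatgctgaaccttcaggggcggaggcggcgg
Clic4 chr4:135272815-135273010 (- strand): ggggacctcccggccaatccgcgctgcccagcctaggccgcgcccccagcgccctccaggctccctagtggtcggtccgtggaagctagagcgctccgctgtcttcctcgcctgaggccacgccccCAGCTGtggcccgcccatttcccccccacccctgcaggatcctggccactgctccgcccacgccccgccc
Kcnj8 chr6:142571615-142571864 (- strand): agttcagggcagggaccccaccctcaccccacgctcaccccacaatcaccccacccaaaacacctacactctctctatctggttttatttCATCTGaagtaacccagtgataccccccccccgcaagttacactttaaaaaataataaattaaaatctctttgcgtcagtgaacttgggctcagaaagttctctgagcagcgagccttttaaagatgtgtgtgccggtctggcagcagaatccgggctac

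Of these windows Cacna1s held 2 matches, Clic4 and Kcnj8 held 1 each, and Cacnb1 held 0. Among 32851 RefSeq windows of 250 bases 66.2% held CANNTG, and of the 25 members with an entry 18 did. The form CAGCTG, which is contained in CANNTG, stood in 13% of all windows and in 6 of the 25 member windows, those of Cacna1s and Clic4 included. A match is a description of letters and no evidence of binding. The G and C content of the 250 bases was 62.4% for Cacna1s, 73.2% for Cacnb1, 73.2% for Clic4 and 49.2% for Kcnj8.

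Potassium channel genes had the most abundant member. Kcnk3 encodes TASK-1, a two-pore background potassium channel known in mouse brown fat for limiting the depolarisation that adrenergic signals cause. The gene, at chr5:30573987-30625270, stood at 113 FPKM in SML and 85.8 FPKM in HFD control, rank 959 of 10778 symbols by mean level. Its ratio of scaled counts was 1.32 (1.26 to 1.38), on 4008 and 4130 fragments. That interval is narrow and lies above 1, but the log2 difference of 0.40 is under the size rule. Kcnk3 alone held 29.5% of the summed FPKM of the 33 channel symbols in SML and 22.1% in HFD control.

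The voltage-gated potassium channel genes were far lower in level. Kcns3 encodes Kv9.3, a subunit that is silent alone and modifies other voltage-gated potassium channels, and stood at 6.26 FPKM in SML and 4.42 FPKM in HFD control. Its ratio was 1.42 (1.14 to 1.77), so the interval lay above 1 but the gene did not reach the size rule. Kcna5, the pore subunit Kv1.5, had 2.07 FPKM in SML against 3.37 FPKM in HFD control, a ratio of 0.615 (0.442 to 0.847) that passed 1.5-fold on scaled counts but not on the log2(FPKM + 1) scale. Kcnab3 had 1.96 FPKM in SML and 0.93 FPKM in HFD control, and its ratio of 2.11 (1.29 to 3.49) rested on 45 and 29 fragments.

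Kcnn1 encodes SK1, a small-conductance potassium channel that opens with intracellular calcium. It stood at 4.15 FPKM in SML and 2.75 FPKM in HFD control, with a ratio of 1.5 (1.19 to 1.90) at the edge of the size rule and a log2 difference of 0.46 below it. The inward rectifiers Kcnj8 and Kcnj11 encode Kir6.1 and Kir6.2, the pores of ATP-sensitive potassium channels, which close as ATP rises. Kcnj8 had 17.1 FPKM in SML and 19.8 FPKM in HFD control, a ratio of 0.863 (0.75 to 0.992). Kcnj11 had 2.68 FPKM in SML and 2.97 FPKM in HFD control, a ratio of 0.825 (0.597 to 1.13). Both pores were thus within 1.5-fold, and Kir6.1 was the more abundant one in both libraries.

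Abcc9, which encodes the sulfonylurea receptor SUR2 of these channels, is outside the name rule and was chosen after its values were seen. It had 0.79 FPKM in SML against 2.34 FPKM in HFD control, 2.95-fold lower (2.18 to 4.03). Kcnj8 and SUR2 are known from pericytes and smooth muscle. Of 10 smooth muscle and pericyte markers 2 were lower, 0 higher and 8 neither, and the median difference was -0.22. The differences were mixed, from -0.92 for Rgs5 to 0.34 for Myh11, and the other lower marker was Des. The summed levels were 147 FPKM in SML and 197 FPKM in HFD control. Des, the most abundant of the 10, held 55.4 FPKM of the SML sum and 86.2 FPKM of the HFD control sum. The sums thus follow that gene in large part. Skeletal muscle is another known source of SUR2, and its markers were lower. The part of either tissue in the Abcc9, Kcnj8 and Des values was not tested.

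Over the 8 potassium channel symbols the summed level was 152 FPKM in SML and 124 FPKM in HFD control. Kcnk3 alone held 113 FPKM of the SML sum and 85.8 FPKM of the HFD control sum. The gap between the sums was about as large as that of Kcnk3. The median log2 difference was 0.20. By the size rule 1 of 8 was higher and 0 were lower, against 5.44% and 5.76% of all genes kept. The interval lay above 1 for Kcnk3, Kcns3, Kcnn1 and Kcnab3 and below 1 for Kcna5 and Kcnj8. Over all genes kept it lay above 1 for 25.2% and below 1 for 23.5%. The signs of these 6 differences held under each alternative scaling.

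**Figure D2:**
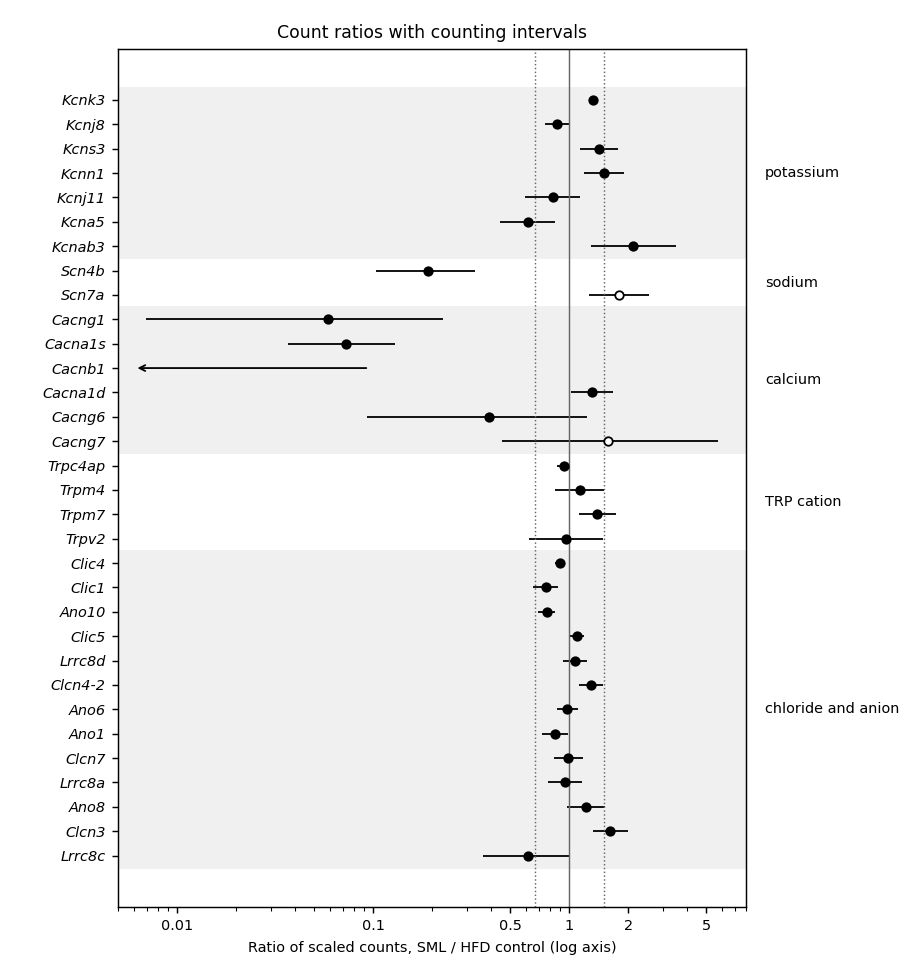
Ratio of scaled counts, SML over HFD control, for the same 32 symbols on a log axis, with the 95% interval for counting error. The dotted lines mark 1.5-fold either way, open points are the 2 members below the filter, and the arrow for Cacnb1 shows an upper limit since 0 fragments were counted in SML.

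Among sodium channel genes no pore subunit of a classical voltage-gated sodium channel passed the filter among the symbols analysed here. Scn4b, the auxiliary beta-4 subunit, was present at 0.38 FPKM in SML and 1.99 FPKM in HFD control, 5.25-fold lower (3.04 to 9.70) on 15 and 107 fragments.

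Scn7a encodes Nax, a sodium channel relative known as a sensor of sodium concentration. Its deposited FPKM was listed at 0 in SML and was 0.62 in HFD control, but its fragments numbered 78 in SML and 59 in HFD control. The ratio of scaled counts was therefore 1.8 (1.27 to 2.56), the opposite direction from the FPKM columns. The SML scaled count implied an SML level of 1.11 FPKM, and with that value the mean of both libraries stayed below the filter. Cacng7, a calcium channel gamma subunit of the brain, also had an FPKM listed at 0 in SML despite counted fragments, and 0.70 FPKM in HFD control. Its ratio of 1.59 (0.456 to 5.71) on 7 and 6 fragments included 1, so the counts gave no direction. Such a listing was common: 1443 of 14189 transcripts had an SML FPKM of 0 and a count above 0. No direction was read from FPKM for Scn7a or Cacng7.

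Voltage-gated calcium channel genes had 5 kept members, of which 4 were lower by the size rule and 0 higher. The shares of all genes kept were 5.76% lower and 5.44% higher. These 4 passed the filter only through the HFD control library and belong to the muscle list chosen with earlier results known. Cacna1d encodes Cav1.3, an L-type pore of neurons and endocrine cells, and stood at 1.58 FPKM in SML and 1.21 FPKM in HFD control with a ratio of 1.30 (1.02 to 1.66). The other 4 are subunits known from skeletal muscle. Cacna1s encodes Cav1.1, the voltage sensor that couples the muscle action potential to contraction, and had 0.20 FPKM in SML against 2.84 FPKM in HFD control. On 12 and 226 fragments it was 13.9-fold lower (7.78 to 27.2). The muscle pore gene was thus lower in SML, while the interval of Cacna1d lay above 1.

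Among partner subunits of Cav1.1, those that passed the filter were lower with it by the size rule. Cacnb1, the intracellular beta-1 subunit, had 0 fragments in SML and 54 in HFD control (listed at 0 and 2.88 FPKM). With the SML library set at a floor of 3 fragments it was 13.3-fold lower. Its counting interval allowed a smaller difference, at least 10.4-fold lower. Cacng1, the gamma-1 subunit, had 0.20 FPKM in SML against 3.39 FPKM in HFD control, and its ratio of 0.059 (0.0070 to 0.226) rested on 2 and 46 fragments. Cacng6, a gamma subunit of muscle, had 0.68 FPKM in SML and 1.75 FPKM in HFD control, with 4 and 14 fragments and a ratio of 0.388 (0.093 to 1.24) whose interval included 1. The size rule counted Cacng6 as lower, but an equal level lies within its counting error.

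The skeletal muscle channel list had 12 genes, of which 6 had rows and passed the filter. Of these 5 were lower and 0 higher, against 5.76% and 5.44% of all genes kept. The 5 passed the filter only through the HFD control library. Their median difference was -1.40, or -1.39 with Cacnb1 at its floor. Kcnj11 was the exception at a difference of -0.11. Their summed level was 4.14 FPKM in SML and 15.8 FPKM in HFD control. Skeletal muscle fibre markers moved with them: 18 of 18 were lower, with summed levels of 448 FPKM in SML and 4785 FPKM in HFD control and a median of 13.1-fold lower. Their range was 2.26-fold for Myl1, a myosin light chain, to 31.2-fold for Tnni1, a slow troponin.

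In bulk tissue fewer cells of a type and less RNA per cell cannot be told apart, and the part of muscle fibres in the 5 lower channel genes was not tested. None of the 18 markers was at 0 in either library, and their lowest levels were 0.43 FPKM in SML and 4.45 FPKM in HFD control. Without the list the other 26 members had 1 higher and 0 lower, a median of -0.01 and a range from -0.51 to 0.62. Over all genes kept without the list 5.44% were higher and 5.71% were lower. The list was chosen with earlier results of these data known, so this split describes the members and tests nothing.

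**Figure D3:**
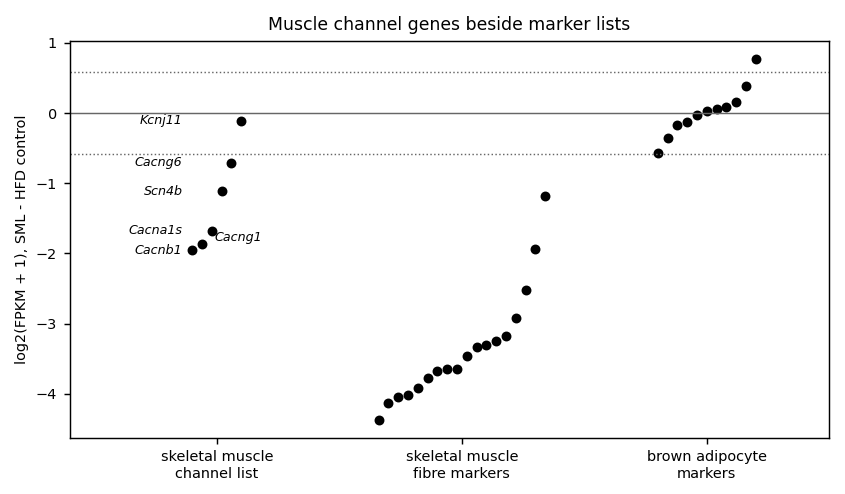
Difference in log2(FPKM + 1), SML minus HFD control, for genes with a mean of at least 1 FPKM in 3 lists, with 1 point a gene and dotted lines at 1.5-fold. The muscle channel genes other than Kcnj11 and all 18 fibre markers lie below the lower line, while the brown adipocyte markers run from -0.57 to 0.77.

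TRP channel genes were expressed at low levels. Trpv2, a cation channel whose loss impairs thermogenesis in mouse brown fat, stood at 1.56 FPKM in SML and 1.61 FPKM in HFD control, a ratio of 0.963 (0.623 to 1.48) on 39 and 55 fragments. Trpm4, a channel for monovalent cations that calcium opens, stood at 2.37 FPKM in SML and 2.10 FPKM in HFD control, a ratio of 1.13 (0.851 to 1.5). Both intervals reach a difference of about the size rule in at least one direction, so the depth does not settle smaller changes. Trpm7, a channel fused to a kinase that carries magnesium and calcium, stood at 2.60 FPKM in SML and 1.87 FPKM in HFD control. Its ratio was 1.39 (1.12 to 1.73), and its log2 difference of 0.33 became -0.03 once the trend with GC content and transcript length was removed. Trpc4ap, the protein named for TRPC4, stood at 42.3 FPKM in SML and 45.2 FPKM in HFD control.

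Chloride and anion channel genes made up the largest ion group, with 13 symbols that all passed the filter. By the size rule 0 were higher and 0 were lower, against 5.44% and 5.76% of all genes kept. Their summed level was 184 FPKM in SML and 204 FPKM in HFD control, which was 48.0% and 52.5% of the FPKM of all channel symbols. The median difference was -0.03 and the values ran from -0.41 for Ano10 to 0.53 for Clcn3.

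**Figure D4:**
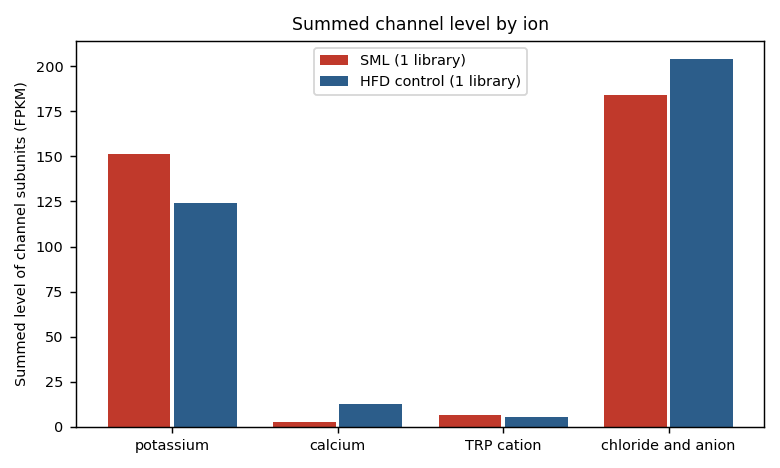
Summed FPKM of the channel subunits of 4 ion groups, with the SML library left of the HFD control library and no error bars since each group had 1 library. Chloride and potassium genes have the highest sums of the 4, and calcium channel genes stand at 2.66 FPKM in SML and 12.8 FPKM in HFD control. Kcnk3 alone gives 113 FPKM of the potassium sum in SML and 85.8 FPKM in HFD control.

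The CLIC proteins exist in soluble and membrane forms and are linked to actin and to organelle membranes. Clic4 was the second most abundant channel symbol, at 49.3 FPKM in SML and 54.7 FPKM in HFD control, a ratio of 0.901 (0.850 to 0.956). Clic1, abundant in macrophages among other cells, stood at 30.7 FPKM in SML and 40.3 FPKM in HFD control, a ratio of 0.759 (0.656 to 0.878). Clic5, linked to the actin cortex, stood at 20.2 FPKM in SML and 18.3 FPKM in HFD control, with a ratio of 1.10 (1.01 to 1.19) and a log2 difference of 0.13 that became -0.02 without the GC and length trend. Of 8 measured macrophage markers 0 were higher and 5 were lower, with summed levels of 272 FPKM in SML and 439 FPKM in HFD control. Of 10 endothelial markers 0 were higher and 3 were lower, with sums of 202 FPKM in SML and 305 FPKM in HFD control. Their part in the Clic1 and Clic4 values was not tested.

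The anoctamins include calcium-activated chloride channels and lipid scramblases. Ano10 stood at 28.9 FPKM in SML and 38.7 FPKM in HFD control, a ratio of 0.766 (0.697 to 0.842). Ano6, a scramblase that exposes phosphatidylserine, stood at 8.14 FPKM in SML and 8.31 FPKM in HFD control, a ratio of 0.980 (0.864 to 1.11). Ano1, the calcium-activated chloride channel TMEM16A, stood at 6.11 FPKM in SML and 7.19 FPKM in HFD control, a ratio of 0.849 (0.724 to 0.991). Ano8, which tethers the endoplasmic reticulum to the plasma membrane, had 4.36 FPKM in SML and 3.59 FPKM in HFD control. No anoctamin reached the size rule, as for most genes kept (5.44% higher and 5.76% lower). The scramblase Ano6 was the nearest to equal in the 2 libraries.

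The CLC members of the table are exchangers of chloride for protons in endosomes and lysosomes. Clcn7, the lysosomal exchanger, stood at 6.53 FPKM in SML and 6.59 FPKM in HFD control, a ratio of 0.990 (0.837 to 1.17). Clcn4-2, the mouse gene for the endosomal exchanger CLC-4, stood at 10.6 FPKM in SML and 8.29 FPKM in HFD control, a ratio of 1.29 (1.13 to 1.48). Clcn3, the closely related CLC-3, stood at 4.23 FPKM in SML and 2.62 FPKM in HFD control. Its ratio of 1.61 (1.31 to 1.98) passed 1.5-fold on scaled counts, while its log2 difference of 0.53 lay just inside the size rule and was 0.21 without the GC and length trend. The intervals of both endosomal exchangers thus lay above 1, and that of the lysosomal one included 1.

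The LRRC8 proteins form the volume-regulated anion channel, in which LRRC8A is essential and others set its properties. Lrrc8a, known in mouse adipocytes for a role in growth and insulin signalling, stood at 4.48 FPKM in SML and 4.70 FPKM in HFD control, a ratio of 0.952 (0.782 to 1.16). Lrrc8d stood at 9.84 FPKM in SML and 9.18 FPKM in HFD control, a ratio of 1.07 (0.933 to 1.24). Lrrc8c stood at 0.93 FPKM in SML and 1.51 FPKM in HFD control, and its ratio of 0.615 (0.363 to 1.01) on 24 and 53 fragments included 1. In both libraries Lrrc8d was the most abundant of these subunits and Lrrc8c the least. Lrrc8c at chr5:105519471-105608954 and Lrrc8d at chr5:105699969-105815215 are neighbours in mm10.

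Of the 34 members 8 had more than 1 assembled transcript. In Clcn3, Kcns3 and Trpm7 the highest transcript held all or nearly all scaled counts of both libraries, while in the other 5 the shares differed between the libraries. Lrrc8d had 359 and 0 fragments for its 2 transcripts in SML, against 142 and 313 in HFD control. The first transcript thus held all but a trace of the scaled counts in SML and 31.2% in HFD control. Ano10 had 82 and 607 fragments for its 2 transcripts in SML, against 624 and 599 in HFD control. The first Ano10 transcript held 11.9% of the scaled counts in SML and 51.0% in HFD control, and with only the highest transcript of a gene kept its log2 difference was 0.44 in place of -0.41. The same choice gave Lrrc8d a difference of 1.49 in place of 0.09, past the size rule, and Kcnj11 one of 0.58 in place of -0.11, just under it.

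Kcnj11 had 0 and 65 fragments for its 2 transcripts in SML, against 59 and 48 in HFD control. Clcn4-2 had 370, 43 and 4 fragments for its 3 transcripts in SML, against 346, 93 and 0 in HFD control. Trpc4ap had 1143 and 101 fragments for its 2 transcripts in SML, against 1808 and 0 in HFD control. Transcripts of 1 gene share exons, the division of fragments between them is an estimate of the authors' software, and the interval of the sum does not cover that division.

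**Figure D5:**
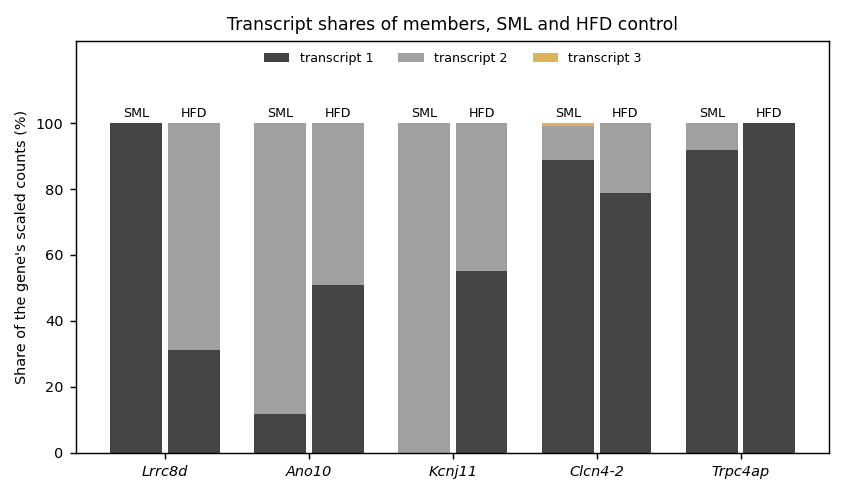
Share of each gene's scaled counts held by its assembled transcripts, in percent, with the SML library left of the HFD control library and no error bars since each group had 1 library. The shares of Lrrc8d, Ano10 and Kcnj11 differ most between the libraries.

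Nerve is another source of channel transcripts in a dissected depot. Of 12 neuron markers 1 had a row, Stmn2, at 3.04 FPKM in SML and 2.01 FPKM in HFD control. The other symbols of that list had no row among the symbols analysed here, so nothing was read from them. Of the 5 Schwann cell markers kept 0 were higher and 2 were lower.

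A list of channel genes outside the name rule gives the wider setting. Of 45 genes for calcium store, mechanical, ligand-gated and gap junction channels 23 passed the filter, with 1 higher, 1 lower and a median difference of 0.08. The shares of all genes kept were 5.44% higher and 5.76% lower. Hcn2, a pacemaker channel, was higher at 3.27 FPKM in SML against 1.8 FPKM in HFD control, a ratio of 1.81 (1.32 to 2.5). Tmem38a, which encodes the channel TRIC-A of the muscle sarcoplasmic reticulum, was lower at 3.97 FPKM in SML against 21.1 FPKM in HFD control, 5.32-fold (4.16 to 6.88). Tmem38b, its relative in most tissues, stood at 16.2 FPKM in SML and 14.1 FPKM in HFD control. The muscle form was the lower one of this pair too, beside the muscle fibre markers given above, whose part in it was not tested. Ryr1, the calcium release channel that Cav1.1 gates, had 0.090 FPKM in SML and 1.70 FPKM in HFD control, below the filter, with 14 and 342 fragments. Stim2 and Tmem63b were next at the upper end, with differences of 0.28 each, and Tmem63a was next at the lower end with -0.37.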

How the data were processed

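Poly(A) RNA of brown adipose tissue was sequenced in 1 SML library and 1 HFD control library, as the labels' protocols state. The authors deposited 1 table of assembled transcripts with an FPKM and a scaled count for each library; no sample column went unused (0). CASAVA 1.8, Cufflinks and build mm10 are named in the submitters' processing notes; the aligner, annotation, strand setting and filters are not given there, so fragments of overlapping or near-identical genes may be divided wrongly. The deposited counts are a scaled signal, not raw counts: where a symbol had 1 transcript, its low values were multiples of 0.866 (SML) or 0.637 (HFD control). Up to 20 steps, 90.8% of 780 SML and 90.8% of 520 HFD control values were whole within 0.1. Dividing by the step gave fragments, which the 95% exact conditional binomial intervals use. These intervals cover counting error only, and any PCR duplicates would make them too narrow.

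Transcripts were summed by symbol. The pseudocount was 1, the filter a mean FPKM of at least 1, the size rule 1.5-fold and the floor 3 fragments per library. File starts are counted from 0 and were raised by 1. Named in full were members with a mean FPKM of at least 5 or past the size rule, the highest of each ion and the muscle channel list; others named were chosen after their values were seen. Values of 2 members are not reported here, though counts and sums include them. Members and lists were chosen with earlier results of these data known. Alternatives were tried one at a time. The procedure was tested on simulated data with counting error only, which hold no variation between animals or libraries. Promoter windows came from RefSeq (GRCm38.p6), with 25 of 34 members matched. Tools were Python 3.11.15, numpy 2.4.6, pandas 2.3.3, scipy 1.17.1 and matplotlib 3.10.9.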

Additional observations from a re-analysis of the deposited data

How the results depend on the processing

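Relative to 1 higher and 5 lower of 32 members, the counts changed as follows. A pseudocount of 0.1 gave 2 higher, the highest transcript per symbol 2 (Lrrc8d added), the ratio of deposited counts 3 and a 2-fold rule 0. The shares of all genes kept moved too: 8.57% were higher and 8.43% lower with the pseudocount of 0.1, 7.24% and 7.06% with the highest transcript, and 9.14% and 8.44% with the ratio of deposited counts. A mean FPKM of at least 5 left 14 members, with 0 higher and 0 lower, against 5.18% and 4.97% of all genes at that level. The size calls of members thus came from genes below that level. Without the muscle channel list, which was chosen with earlier results known, 0 were lower, against 5.71% of all genes kept. With the pseudocount of 0.1 and with the ratio of deposited counts 7 members were lower, Kcna5 and Lrrc8c added, and Clcn3 joined the higher members in both, with Kcnn1 also for the ratio of deposited counts. With no filter 7 members were lower, against 10.4% of all genes, Scn7a and Cacng7 added, whose SML FPKM is listed at 0 despite counted fragments. The GC and length trend, both scalings and the replacement of SML FPKM values of 0 by those their counts imply, an alternative chosen after seeing the data, left 1 higher and 5 lower. The median difference of members was -0.04 and ran from -0.05 to 0.01 over the alternatives. The value of 0.01 came with totals equal outside the 50 highest genes, a scaling that raised every SML level by 0.05 (log2) and put the median of all genes kept at 0.05. GC content and length could be had for 96.9% of the kept members. No paired analysis was possible because each group had 1 library, and no library could be left out. Depth limits the genes with few fragments, such as Cacng6 (4 and 14) and Cacng1 (2 and 46).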

Other observations

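Pumps and exchangers keep the ion gradients that channels use. Of 23 kept genes of this list 3 were higher, 4 were lower and the median difference was -0.28. The shares of all genes kept were 5.44% higher and 5.76% lower. Slc4a4, a sodium bicarbonate cotransporter, stood at 23.6 FPKM in SML and 9.07 FPKM in HFD control, a ratio of 2.60 (2.39 to 2.82). Slc12a2, the sodium, potassium and chloride cotransporter NKCC1 that loads cells with the chloride anion channels release, stood at 6.73 FPKM in SML and 3.05 FPKM in HFD control, a ratio of 2.21 (1.89 to 2.59). Atp2a1, the calcium pump of fast muscle, had 8.12 FPKM in SML against 128.5 FPKM in HFD control, and Atp2a3, a calcium pump of blood and endothelial cells, had 1.17 FPKM in SML against 2.82 FPKM in HFD control. Muscle fibre markers were lower in the same library. So were 4 of 4 measured erythroid markers, with summed levels of 1012 FPKM in SML and 1974 FPKM in HFD control. Of 10 endothelial markers 3 were lower and 0 higher. The part of these cell types in the pump values was not tested.

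Mitochondrial calcium and anion channel genes had 1 of 10 higher and 0 lower, against 5.44% and 5.76% of all genes kept. Their median difference was 0. Micu3, a regulator of the calcium uniporter, stood at 3.26 FPKM in SML and 1.08 FPKM in HFD control, a ratio of 3.03 (2.10 to 4.43) on 98 and 44 fragments. Mcur1, another uniporter regulator, had a ratio of 1.49 (1.41 to 1.57), just inside the size rule. The uniporter pore gene Mcu stood at 6.79 FPKM in SML and 5.66 FPKM in HFD control. Vdac1 and Vdac2, the outer membrane anion channels, were at the lower end with ratios of 0.758 (0.725 to 0.793) and 0.832 (0.797 to 0.868).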
